A study of Mus musculus with 20 samples.

Results

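The Prdm14 line is a mouse embryonic stem cell clone that carries an inducible Prdm14 transgene, and its arrays on day 1 of aggregate culture with doxycycline were set against arrays of the epiblast-like cells (EpiLCs) from which the aggregates were made. The members were taken by their labels: 2 arrays titled P14 on day 1 and 2 arrays titled P14 EpiLC at 36 h, 4 of the 20 arrays in the series. All 20 arrays measured total RNA on Affymetrix probe sets, in 5 lines and 2 stages with 2 arrays a group. EpiLCs were derived over 36 h from stem cells kept in 2i and LIF, and were then aggregated at 2000 cells a well for 24 h in GK15 medium with doxycycline at 1.5 µg/ml. All lines are labelled male, C57BL/6;129, and carry Blimp1-mVenus, stella-ECFP and Rosa26-rtTA, the last of which encodes the transactivator that doxycycline switches on. The P14 line (clone #7-109) adds tetOx8-mCMV-3xFLAG-Prdm14-IRES-beta geo on a piggyBac vector. The groups used beside it are the 3-factor line BP14A, which has Avi-Blimp1, 3xFLAG-Prdm14 and V5-Tfap2c transgenes of the same design, the B line, which has Avi-Blimp1 alone, and the parental line, which has no factor transgene but received the same doxycycline. The Tfap2c line (A) entered the fit and is used only in an alternative.

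PRDM14 is a zinc-finger protein of pluripotent and primordial germ cells that acts mostly as a repressor, together with the corepressor CBFA2T2 and Polycomb complexes. In mouse embryonic stem cells it holds back FGF signalling and the de novo DNA methyltransferases, which keeps the cells in the naive state. In the embryo it is one of the first factors of the germ cell lineage, beside BLIMP1 (gene Prdm1) and TFAP2C. EpiLCs resemble the epiblast just before gastrulation, from which germ cells arise.

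Each line is 1 clone, so the factor and the clone cannot be told apart, and the comparison of day 1 with EpiLCs also changes the medium, the culture format and doxycycline. Aggregates without doxycycline were not analysed here. The 2 P14 arrays of a stage correlated over all probe sets at r = 0.973 on day 1 and at 0.975 in EpiLCs. Array medians ran over 4.59 to 4.86 log2 units in the series. The P14 line went against its label in part: of the Y-linked genes, Eif2s3y, a translation factor subunit, was at 2.17 and 2.39 on day 1 and 4.51 and 4.71 in EpiLCs, against 9.16 and 9.38 on day 1 and 9.41 and 9.56 in EpiLCs of the parental line. Uty, a Y-linked demethylase relative, stood at 4.06 and 4.66 on day 1 and 4.25 and 4.61 in EpiLCs of the P14 line, against 8.56 and 8.57 on day 1 and 8.05 and 8.41 in EpiLCs of the parental line. Eif2s3y therefore fell within the P14 line as well, while the levels of Uty overlapped between its stages. Low Eif2s3y signal was not limited to the P14 line. In the B line, also labelled male, it was at 0.71 and 1.25 on day 1 and 1.14 and 2.22 in EpiLCs. In the BP14A line it lay between the P14 and parental levels, at 6.5 and 6.51 on day 1 and 7.38 and 7.14 in EpiLCs. The middle 18S ribosomal RNA control probe set was at 12.12 and 11.85 on day 1 and 10.87 and 10.86 in EpiLCs of the P14 line, against 11.89 and 12.11 on day 1 and 11.67 and 11.04 in EpiLCs of the parental line. The part of these features in the results was not tested. The probe-set difference between the 3' and 5' ends of Gapdh, a sign of RNA integrity, lay between -0.18 and -0.14 on the 4 P14 arrays.

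EpiLCs of the P14 line began close to those of the parental line. Of 14010 genes tested, 5 (0.0357%) were called lower in P14 EpiLCs than in parental EpiLCs and 0 (0%) higher, beside 819 genes at an unadjusted limma p under 0.05 in either direction. A gene was called where limma's Benjamini-Hochberg adjusted p was under 0.05 and the log2 change at least 1. The 5 are the Y-linked Eif2s3y (-4.88), Uty (-3.80) and Uba1y (-1.71), the amino acid transporter Slc38a4 (-1.47) and Ufsp2 (-1.08), named after their values were seen. These 5 genes stayed lower without the first array of the parental EpiLCs, but most genes called in that setting were higher in P14 EpiLCs. Without the second array of the P14 EpiLCs the 5 genes stayed lower too, and most calls were lower.

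Within the P14 line, day 1 brought large rises of the germ cell factor gene Tfap2c, the naive pluripotency gene Klf2 and several genes for cell-surface and signalling proteins, and large falls of the epiblast gene Pou3f1, the kinase gene Pim2 and the DNA methyltransferase cofactor gene Dnmt3l. In all, 600 genes rose (4.28% of the 14010 tested) and 520 fell (3.71%), and 37 rose by at least 3 log2 units while 24 fell by at least as much. Over all genes tested the median change was 0.02. The P14 arrays of the 2 stages did not overlap for any of the 1120 called genes, nor for 66.4% of all genes tested.

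Gprc5a, a receptor gene induced by retinoic acid in other cells, was at 7.77 and 7.76 on day 1 and at 3.05 and 1.07 in EpiLCs. Its rise of 5.71 ± 0.60 log2 units (SE) was the largest, and since both EpiLC arrays lay below the low-value filter of 3.95, its size is approximate. Tfap2c, which encodes the AP-2 gamma factor of germ cells, was at 10.70 and 10.91 on day 1 and at 5.33 and 5.29 in EpiLCs. Its rise of 5.50 ± 0.13 (limma adjusted p = 1.48e-10) was shared by its other probe sets, which rose by 4.63 and 5.49. Tfap2c has no transgene in this line. Aqp3, a water and glycerol channel gene, was at 8.15 and 8.39 on day 1 and 3.40 and 2.86 in EpiLCs, a rise of 5.14 ± 0.24. Klf2 reached 11.75 and 11.59 on day 1, against 6.97 and 6.60 in EpiLCs, a rise of 4.89 ± 0.28. Every one of these 4 genes had day 1 arrays well above its EpiLC arrays.

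Porcn, whose enzyme lipid-modifies WNT proteins for secretion, rose by 4.60 ± 0.24, and Ephx2, a soluble epoxide hydrolase gene, by 4.10 ± 0.20. Nkx1-2, a homeobox gene of the caudal epiblast, rose by 4.32 ± 0.26, and Efnb1, an ephrin ligand gene, by 4.07 ± 0.39. Zeb2, a repressor of epithelial genes, rose by 4.07 ± 0.34 and Ntn1, which encodes the secreted guidance protein netrin 1, by 3.71 ± 0.24. The remaining genes of the 12 largest rises were Gpx6, a glutathione peroxidase gene, and Cdhr1, a cadherin gene of photoreceptors, at 3.62 ± 0.72 and 3.60 ± 0.23. Zeb2 had P14 EpiLC values of 1.11 and 1.35 and only 3 of its 5 probe sets rose by over 2 units, with 0.04 and 0.44 for the others. Of the 12, Tfap2c, Klf2 and Ephx2 had P14 EpiLC means above 3.95, and for the others the size of the rise is approximate. Of all genes that rose, 135 had P14 EpiLC means below that level, and of the genes that fell, 125 had day 1 means below it.

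Among the falls, Pim2, a serine/threonine kinase gene, was at 7.67 and 7.59 on day 1 and 11.48 and 11.50 in EpiLCs, a change of -3.86 ± 0.10 (limma adjusted p = 2.24e-10). Pou3f1, which encodes the epiblast and neural POU factor OCT6, was at 8.43 and 8.31 on day 1 and 12.09 and 12.21 in EpiLCs, a change of -3.78 ± 0.11. Rasgrp2, an exchange factor gene for Rap1, was at 6.85 and 6.74 on day 1 and 10.55 and 10.47 in EpiLCs, a change of -3.72 ± 0.07. These 3 genes were bright at both stages, so their falls were measured well inside the range of the arrays. Dnmt3l was at 5.55 and 5.65 on day 1 and 9.12 and 9.25 in EpiLCs, a change of -3.59 ± 0.27. Socs3, a feedback inhibitor of STAT3, was at 2.46 and 2.16 on day 1 and 6.21 and 5.89 in EpiLCs, a change of -3.74 ± 0.22. Podxl, which encodes the sialomucin podocalyxin, changed by -3.65 ± 0.12, and its dimmer probe set by -1.18. Gprc5b, an orphan receptor gene, changed by -3.73 ± 0.15, Mdfi, an inhibitor of myogenic factors, by -3.64 ± 0.24, and Lzts1, a leucine zipper gene, by -3.53 ± 0.19. Cdk5r2, an activator of the kinase CDK5, changed by -3.84 ± 0.18, and the metallothionein gene Mt3 by -3.72 ± 0.53. For Socs3, Cdk5r2, Mt3, Lzts1 and Mdfi a day 1 mean below 3.95 makes the size approximate. In these bulk samples, fewer cells that express a gene and less RNA per cell cannot be told apart.

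Promoters are shown for 3 genes to give the sequence context of a rise, a fall and a change in opposite directions, with the letters of the PRDM14 core motif GTCTCTA and of the TFAP2 motif GCCNNNGGC in capitals. Each is the 250 bases before the gene's start, from RefSeq (build GRCm38.p6), plus strand in each case. Tfcp2l1, a naive pluripotency factor gene that rose by 1.78 ± 0.28, lies on chr1:118627695-118627944, with a TFAP2 match that starts 231 bases before the start. Epha10, an ephrin receptor gene with the largest fall, -3.98 ± 0.65, lies on chr4:124881535-124881784, with a PRDM14 match at 244 bases and a TFAP2 match at 119 bases. Nt5e, which encodes the surface 5'-nucleotidase CD73 and fell by 1.87 on the log2 scale, lies on chr9:88327359-88327608, with TFAP2 matches at 127 and 53 bases.
Tfcp2l1: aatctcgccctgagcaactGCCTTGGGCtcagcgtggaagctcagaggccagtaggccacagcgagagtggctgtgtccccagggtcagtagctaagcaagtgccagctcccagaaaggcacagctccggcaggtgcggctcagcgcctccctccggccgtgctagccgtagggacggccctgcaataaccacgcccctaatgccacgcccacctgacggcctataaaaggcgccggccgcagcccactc
Epha10: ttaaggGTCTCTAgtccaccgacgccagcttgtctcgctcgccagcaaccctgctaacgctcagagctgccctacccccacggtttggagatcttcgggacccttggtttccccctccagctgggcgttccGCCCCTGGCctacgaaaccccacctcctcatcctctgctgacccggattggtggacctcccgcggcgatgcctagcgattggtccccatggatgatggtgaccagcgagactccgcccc
Nt5e: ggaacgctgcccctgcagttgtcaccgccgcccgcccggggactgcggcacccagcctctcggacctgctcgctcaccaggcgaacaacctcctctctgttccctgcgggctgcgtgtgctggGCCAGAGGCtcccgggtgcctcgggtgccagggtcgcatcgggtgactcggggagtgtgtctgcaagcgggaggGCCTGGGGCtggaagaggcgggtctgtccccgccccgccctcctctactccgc

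The motifs were read on both strands in windows of 250 bases before to 50 after the start. The PRDM14 core was in 3.3% of all 32851 RefSeq windows and in 3.25% of the 11276 tested genes matched to one. It was in 2.99% of 469 matched genes that rose and 3.7% of 405 that fell in the P14 line. The TFAP2 motif was in 16.6% of all windows and 28.0% of matched tested genes, beside 31.1% of those that rose and 29.9% of those that fell. Of 206 matched genes whose change was higher in the P14 line than in the parental line, 2 (0.971%) held the PRDM14 core, as did 8 of 275 (2.91%) whose change was lower. For the TFAP2 motif these shares were 27.2% and 34.5%. These are matches of letters, given as a description. The 3 genes were chosen after the motif matches were seen. Epha10 stood at 1.69 and 0.11 on day 1 and 5.18 and 4.58 in EpiLCs, so its fall has no exact size and was not called with values floored at 3.95.

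The parental line went through the same 24 h of aggregation with doxycycline without a factor transgene, and the difference between the changes of the lines asks what the P14 line did beyond that. Against the parental change, the largest excesses in the P14 line were of Tcl1, Tfap2c, Epas1, Lrrc31, Nr0b1, Rusc2 and Dppa3. Of these, Tcl1, Tfap2c, Nr0b1 and Dppa3 are known from naive or germ cells. For Lrrc31 and Rusc2 the P14 EpiLC mean and both parental means lay below 3.95, so the sizes of their differences are approximate. The dimmer probe set of Rusc2 differed by 0.65. The largest deficits were of Nt5e, Pim2, Wnt8a, Hs6st2, Pcdh8 and Podxl. The difference between the changes of the lines was called for 635 genes (4.53% of 14010), with 271 higher (1.93%) and 364 lower (2.6%) in the P14 line. Parental EpiLCs and aggregates differed in 921 genes (6.57%), 556 higher on day 1 (3.97%) and 365 lower (2.61%).

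Tfap2c was at 6.38 and 6.29 on day 1 and 5.69 and 5.68 in EpiLCs of the parental line. Its change was thus 4.85 ± 0.18 higher in the P14 line (limma adjusted p = 2.76e-08). Pim2 stood at 11.99 and 11.96 on day 1 and 11.32 and 11.64 in parental EpiLCs, where it did not pass the call, and its change was lower in the P14 line by a log2 difference of -4.36 ± 0.14. Podxl differed by -3.91 ± 0.16, Lzts1 by -3.76 ± 0.28, Pou3f1 by -3.37 ± 0.15 and Gprc5b by -3.22 ± 0.22. None of these 4 was called within the parental line. For some large P14 changes the difference between the lines did not pass the test: it was 0.12 ± 0.37 for Nkx1-2, 0.66 ± 0.54 for Efnb1, -0.03 ± 0.49 for Zeb2, -0.09 ± 0.38 for Dnmt3l and -0.74 ± 0.75 for Mt3. For Gpx6 the estimate was large but imprecise, 2.99 ± 1.03 (limma adjusted p = 0.0856). For Epha10 the difference was -3.07 ± 0.92 with an adjusted p of 0.0487, and the call was lost under 14 alternatives. Those of Rusc2, a gene of a RUN domain protein, and Klf2 (1.50 ± 0.40) were lost under 10 and 7.

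Of the 1120 genes called in the P14 line, 438 were called in the same direction in the parental line, 39.1% of the P14 calls and 47.6% of the parental ones. A further 658 were not called in the parental line, and for 264 of those the difference was called, with 116 that rose and 148 that fell in the P14 line. For the other 394 the difference did not pass the test. The P14 line also lacked changes that the parental line made: 94 genes rose in the parental line, were not called in the P14 line and had a called difference, and 55 did so among those that fell. Among them are Pcdh8, a protocadherin gene of paraxial mesoderm, and Fgf14, a sodium channel modulator gene. Fgf14 means lay below 3.95 in both P14 groups and in parental EpiLCs, so the size of its difference is approximate. Its dimmer probe sets differed by -0.04, -0.125 and -1.08, against -3.875 for the one used. Pcdh8 was at 3.64 and 3.37 on day 1 and 4.15 and 4.43 in EpiLCs of the P14 line, against 6.84 and 7.09 on day 1 and 3.72 and 3.93 in EpiLCs of the parental line, a difference between changes of -3.93 ± 0.25. EpiLC means of the lines lay within 0.5 of each other for 578 (91.0%) of the 635 genes and for 94.6% of all genes tested.

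**Figure D1:**
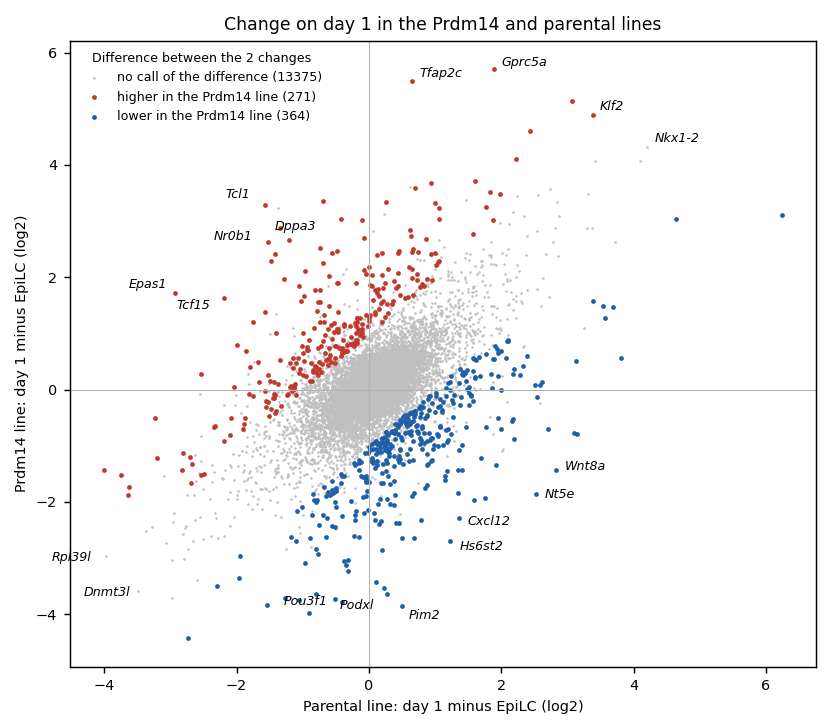
Each point is 1 of 14010 genes, with the log2 change of day 1 over EpiLC in the Prdm14 line on the vertical axis and in the parental line on the horizontal axis. Red points mark the 271 genes whose change was called higher in the Prdm14 line and blue points the 364 called lower, so that Tcl1, Epas1, Nr0b1 and Dppa3 stand in the upper left and Nt5e, Hs6st2, Cxcl12 and Wnt8a in the lower right.

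The 2 lines moved in opposite directions for 24 genes, 23 of them named, with 10 named genes that rose and 13 that fell in the P14 line. The 10 risers hold 3 naive or germ cell genes, Tcl1, Nr0b1 and Dppa3, and the interferon-induced germ cell surface gene Ifitm3. Tcl1, a coactivator of AKT kinase, was at 7.78 and 7.61 on day 1 and 4.42 and 4.39 in EpiLCs of the P14 line, against 3.06 and 3.08 on day 1 and 4.63 and 4.64 in EpiLCs of the parental line. Its changes of 3.29 and -1.57 differed by 4.86 ± 0.33 (limma adjusted p = 1.96e-06). Both parental day 1 arrays of Tcl1 lay below 3.95, so the sizes of its parental fall and of the difference are approximate. Nr0b1, which encodes the orphan receptor DAX1, was at 10.59 and 10.54 on day 1 and 7.94 and 7.93 in EpiLCs of the P14 line, against 6.08 and 6.30 on day 1 and 7.54 and 7.90 in EpiLCs of the parental line. Epas1, which encodes the hypoxia factor HIF-2 alpha, was at 10.36 and 10.46 on day 1 and 8.69 and 8.69 in EpiLCs of the P14 line, against 5.56 and 5.33 on day 1 and 8.43 and 8.32 in EpiLCs of the parental line. For both genes the P14 day 1 arrays were the highest and the parental day 1 arrays the lowest of the 4 groups. The differences were 4.16 ± 0.24 for Nr0b1 and 4.65 ± 0.21 for Epas1.

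Dppa3, known as stella and expressed in germ cells and naive cells, was at 9.67 and 9.82 on day 1 and 7.06 and 7.12 in EpiLCs of the P14 line, against 6.23 and 5.97 on day 1 and 7.27 and 7.35 in EpiLCs of the parental line, a difference of 3.87 ± 0.39. Bnc2, a zinc-finger gene, was at 10.20 and 9.47 on day 1 and 7.53 and 7.30 in EpiLCs of the P14 line, against 6.49 and 5.80 on day 1 and 7.53 and 7.59 in EpiLCs of the parental line. Tcf15, a basic helix-loop-helix gene of epiblast and paraxial mesoderm, was at 10.24 and 10.12 on day 1 and 8.56 and 8.54 in EpiLCs of the P14 line, against 6.20 and 6.53 on day 1 and 8.50 and 8.62 in EpiLCs of the parental line. In all 3 the EpiLC arrays of the lines lay close together and the day 1 arrays far apart. The differences of Bnc2 and Tcf15 were 3.84 ± 0.35 and 3.83 ± 0.19. Ifitm3 rose by 1.39 in the P14 line and changed by -1.57 in the parental line, Hesx1, a forebrain homeobox gene, by 1.84 and -1.06, and Ndrg1, a gene induced by low oxygen, by 2.29 and -1.49.

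Of the 13 fallers, Nt5e was at 3.70 and 3.10 on day 1 and 5.26 and 5.27 in EpiLCs of the P14 line, against 8.62 and 7.98 on day 1 and 5.82 and 5.73 in EpiLCs of the parental line. Its changes differed by -4.39 ± 0.40, though its other probe sets, both dimmer, differed by -0.44 and -1.48. Hs6st2, a heparan sulfate sulfotransferase gene, was at 5.76 and 5.55 on day 1 and 8.47 and 8.23 in EpiLCs of the P14 line, against 9.90 and 9.52 on day 1 and 8.37 and 8.59 in EpiLCs of the parental line. Here the difference was -3.93 ± 0.23, with -3.35 for a second probe set and 0.49 and 0.81 for the 2 dimmest ones. Cxcl12, the chemokine that guides migrating germ cells, was at 5.46 and 4.78 on day 1 and 7.17 and 7.64 in EpiLCs of the P14 line, against 8.94 and 9.17 on day 1 and 7.50 and 7.90 in EpiLCs of the parental line. In the P14 line each of these 3 genes was lowest on day 1, and in the parental line each was highest there. Cxcl12 differed by -3.64 ± 0.32, Has2, a hyaluronan synthase gene, by -3.68 ± 0.30 and Pdgfrl, a gene of a receptor-like protein, by -3.57 ± 0.24. Wnt8a, a WNT ligand gene of the epiblast and streak, differed by -4.26 ± 0.66. Both P14 means of Wnt8a were below 3.95, and its fall within the P14 line was lost under 7 alternatives. The P14 day 1 means of Nt5e, Has2 and Pdgfrl were below 3.95 as well, so the sizes of their falls are approximate. With values floored there, the P14 fall of Pdgfrl was not called.

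**Figure D2:**
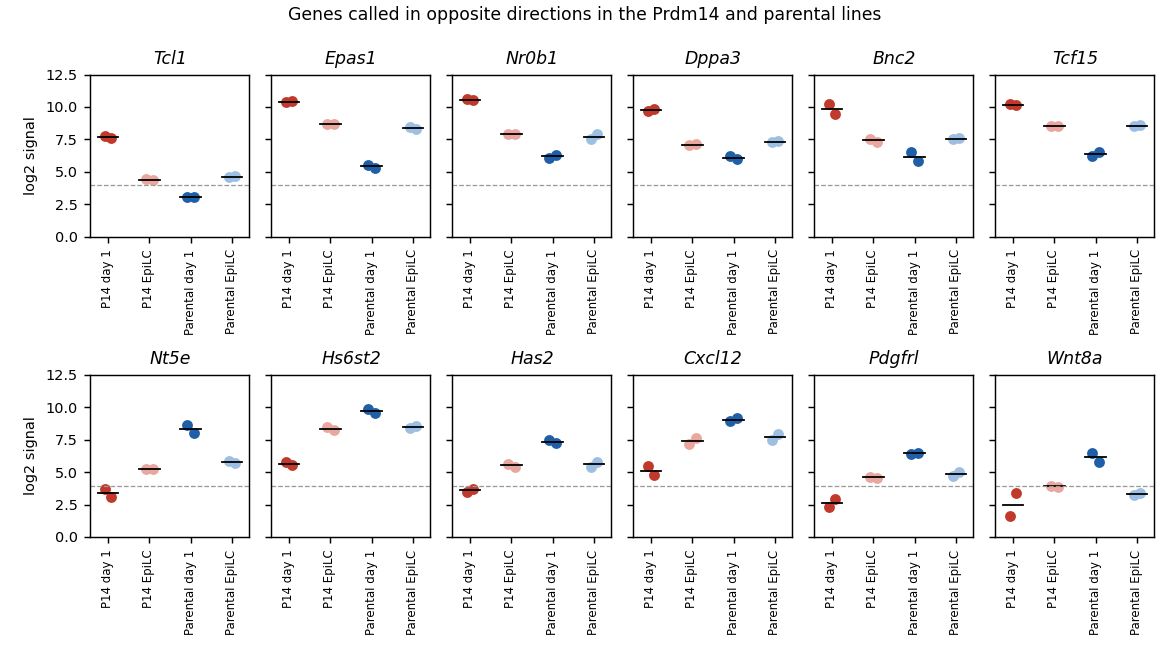
Log2 signal of 12 genes in 4 groups, with 1 point per array, a bar at the mean of 2 arrays and a dashed line at the filter level of 3.95. Tcl1, Epas1, Nr0b1, Dppa3, Bnc2 and Tcf15 (top) are highest in P14 day 1 arrays and lowest in parental day 1 arrays, while Nt5e, Hs6st2, Has2, Cxcl12, Pdgfrl and Wnt8a (bottom) show the opposite order of the day 1 arrays.

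Of the 3 germ cell factors of the design, Prdm14 itself was read by 1 dim probe set, and Prdm1 and Tfap2c rose. The Prdm14 probe set was at 3.21 and 3.80 on day 1 and 3.51 and 4.13 in EpiLCs of the P14 line, against 3.59 and 3.67 on day 1 and 3.29 and 2.85 in EpiLCs of the parental line. Its change of -0.32 ± 1.15 was not called, and no source at hand says whether this probe set reads the transgene's transcript, so the array did not check induction. Prdm1, which encodes BLIMP1, was at 7.23 and 7.39 on day 1 and 4.71 and 4.92 in EpiLCs of the P14 line, against 4.90 and 5.01 on day 1 and 4.39 and 4.18 in EpiLCs of the parental line. It rose by 2.50 ± 0.13 in the P14 line, which has no Blimp1 coding transgene but carries a Blimp1-mVenus reporter, and its change differed from the parental one by 1.83 ± 0.18.

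Germ cell genes beyond the factors split. Counts in this and later lists stand beside all genes tested, of which 4.28% rose and 3.71% fell in the P14 line. The change was higher than the parental one for 1.93% of all genes and lower for 2.6%. Of 18 early germ cell genes tested, 3 rose (Dppa3, Kit and Ifitm3) and 2 fell (Rhox5 and Pdpn) in the P14 line, with a median change of 0.58, while in the parental line 1 rose and 3 fell with a median of -0.16 (all genes, 0.02 and 0.05). The change was higher than the parental one for 5 of them (Dppa3, Ifitm3, Ifitm1, Kit and Elavl2) and lower for 2 (Pdpn and Tdrd7). Of these calls, that of Tdrd7 was lost under 9 alternatives and that of Elavl2 under 3. Kit, the receptor for stem cell factor, was at 7.93 and 8.06 on day 1 and 6.41 and 6.49 in EpiLCs of the P14 line, a rise of 1.55 ± 0.11 that its dimmer probe set, at 0.29, did not share. Ifitm3 was at 11.25 and 11.37 on day 1 and 9.91 and 9.94 in P14 EpiLCs, and at 8.30 and 8.12 on day 1 and 9.76 and 9.79 in EpiLCs of the parental line, so the lines diverged by 2.95 ± 0.15. Pdpn, a mucin-type glycoprotein gene, was at 7.91 and 7.79 on day 1 and 9.56 and 9.55 in P14 EpiLCs, against 10.43 and 10.39 on day 1 and 9.47 and 9.61 in EpiLCs of the parental line. Rhox5, an X-linked homeobox gene, fell by 2.32 on the log2 scale in the P14 line and differed by 0.31 ± 0.16 from the parental change, a difference that was not called.

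Of 19 later germ cell and meiosis genes tested, Sycp3, a synaptonemal complex gene, rose by 1.06 and Hormad1, Morc1 and Stag3 fell in the P14 line, with a median of -0.42. In the parental line 0 rose and 11 fell, with a median of -1.14, beside 3.97% and 2.61% of all genes tested. The difference was called for Morc1 (2.22 ± 0.39), Hormad1 (1.90 ± 0.43) and the RNA-binding protein gene Dazl (1.05 ± 0.20), all with the P14 change higher, and the call of Dazl was lost under 5 alternatives. Morc1, needed to silence transposons in the male germ line, was at 7.04 and 6.58 on day 1 and 8.31 and 8.36 in P14 EpiLCs, against 4.30 and 4.53 on day 1 and 8.19 and 8.13 in EpiLCs of the parental line. Both lines thus had less Morc1 signal on day 1, and the P14 line kept more of it. The median level of the 19 genes in P14 EpiLCs was 5.80 log2 units.

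The naive pluripotency genes that changed in the P14 line all rose. Of 19 tested, 7 rose (Klf2, Tcl1, Nr0b1, Esrrb, Tfcp2l1, Fbxo15 and Klf4) and 0 fell, with a median of 0.18, while in the parental line Klf2 rose and 5 fell (Tcl1, Zfp42, Nr0b1, Dppa5a and Klf5), with a median of -0.48. The difference between the lines was called higher for 8 and lower for 0, with a median of 0.95 beside -0.03 for all genes. Among all genes tested, 4.28% rose and 3.71% fell in the P14 line, and the difference was higher for 1.93% and lower for 2.6%. Esrrb, an orphan nuclear receptor of naive cells, was at 8.74 and 8.94 on day 1 and 6.98 and 6.90 in P14 EpiLCs, against 6.18 and 6.39 on day 1 and 6.93 and 6.59 in EpiLCs of the parental line. It rose by 1.90 ± 0.13, a difference of 2.38 ± 0.19 (limma adjusted p = 7.54e-06). Fbxo15, an F-box gene of embryonic stem cells, was at 9.75 and 9.71 on day 1 and 8.08 and 8.04 in P14 EpiLCs, against 6.75 and 6.78 on day 1 and 7.94 and 7.54 in EpiLCs of the parental line, a difference of 2.65 ± 0.21. Tfcp2l1 was at 7.01 and 7.11 on day 1 and 5.31 and 5.26 in P14 EpiLCs, against 3.93 and 4.55 on day 1 and 5.05 and 5.06 in EpiLCs of the parental line, a difference of 2.59 ± 0.40. For these 3 genes the P14 day 1 arrays were the highest and the parental day 1 arrays the lowest. Zfp42, known as Rex1, overlapped between stages in the P14 line, at 9.15 and 9.08 on day 1 and 9.15 and 9.14 in EpiLCs, against 7.66 and 7.32 on day 1 and 9.05 and 9.06 in EpiLCs of the parental line, and its difference of 1.54 ± 0.20 was called. Klf4 rose by 1.53 ± 0.52 (adjusted p = 0.0388), a call lost under 6 alternatives.

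Nanog and Sox2 rose among the core pluripotency genes, beside 4.28% of all genes tested that rose and 3.71% that fell. Of 15 tested, Nanog, Sox2 and Zfp296 rose and 0 fell in the P14 line, with a median of -0.14, and in the parental line Nanog rose and Fgf4, Gdf3, Dppa2 and Dppa4 fell. Nanog was at 11.26 and 11.42 on day 1 and 7.89 and 7.86 in P14 EpiLCs, against 10.79 and 10.56 on day 1 and 8.25 and 7.98 in EpiLCs of the parental line. Its rise of 3.47 ± 0.12 was 0.91 ± 0.17 above the parental one, under the size needed for a call. Sox2 was at 12.46 and 12.53 on day 1 and 10.73 and 10.64 in P14 EpiLCs, against 10.63 and 10.78 on day 1 and 10.60 and 10.39 in EpiLCs of the parental line, a difference of 1.60 ± 0.12. Sox2 thus stood near one level in 3 of the 4 groups and higher on day 1 of the P14 line. Zfp296, a zinc-finger gene of pluripotent cells, differed by 2.10 ± 0.15 and Gdf3, a TGF-beta family ligand gene, by 1.13 ± 0.16. Pou5f1, which encodes OCT4, was at 12.51 and 12.48 on day 1 and 12.49 and 12.52 in P14 EpiLCs, so its arrays overlapped.

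**Figure D3:**
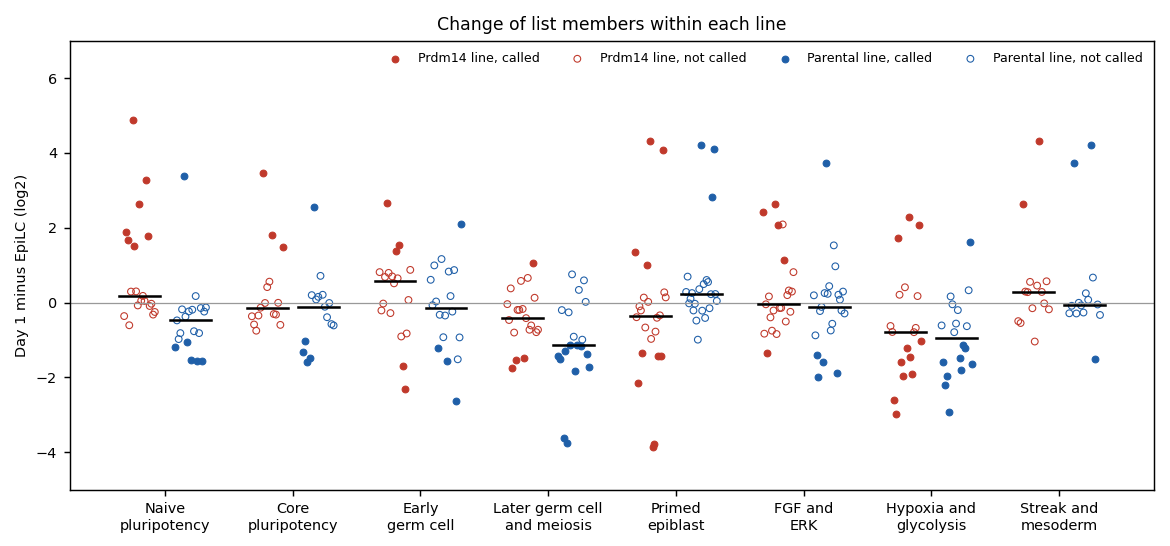
Log2 change of day 1 over EpiLC for each tested member of 8 gene lists, in the Prdm14 line (red) and in the parental line (blue), with filled points for called changes, open points for the others and a black bar at each list's median. The naive pluripotency medians are 0.18 and -0.48, the primed epiblast medians -0.37 and 0.23, and both hypoxia and glycolysis medians lie below 0.

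Primed epiblast genes moved both ways. Of 22 tested, 4 rose (Nkx1-2, Zeb2, Cdh2 and Lef1) and 6 fell (Pim2, Pou3f1, Dnmt3b, Sox4, Wnt8a and Foxd3) in the P14 line, with a median of -0.37, while in the parental line Nkx1-2, Zeb2 and Wnt8a rose and 0 fell, with a median of 0.23. The P14 change was lower than the parental one for 8 and higher for 2 (Lef1 and Cdh2), beside 2.6% and 1.93% of all genes tested. Foxd3, a forkhead gene of the epiblast, was at 6.87 and 6.89 on day 1 and 8.15 and 8.31 in P14 EpiLCs, against 8.01 and 8.13 on day 1 and 8.20 and 8.36 in EpiLCs of the parental line, a difference of -1.14 ± 0.16. Sox4 differed by -1.28 ± 0.13, Sall2, a spalt-family zinc-finger gene, by -1.38 ± 0.15 and the tight junction gene Cldn6 by -1.09 ± 0.18. Lef1, a WNT-responsive transcription factor gene, was at 9.52 and 9.68 on day 1 and 8.40 and 8.77 in P14 EpiLCs, against 7.38 and 7.47 on day 1 and 8.25 and 8.58 in EpiLCs of the parental line, a difference of 2.01 ± 0.20, while its call within the P14 line was lost under 5 alternatives. Fgf5, the textbook marker of EpiLCs, was at 10.11 and 10.3 on day 1 and 10.33 and 10.5 in P14 EpiLCs and was not called. Otx2, a homeobox gene of the epiblast, had a change of -0.97, just under the size needed for a call.

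Among DNA methylation genes, the de novo enzyme genes Dnmt3a and Dnmt3b and the cofactor gene Dnmt3l fell, and the maintenance enzyme was not called. Such falls were called for 3.71% of all genes tested in the P14 line and 2.61% in the parental line. Of 11 tested, Dnmt3l, Dnmt3b and Dnmt3a fell and 0 rose in the P14 line, with a median of -0.17, and in the parental line Dnmt3l, Dnmt3a, Gadd45a and Apobec1 fell. Dnmt3b was at 11.19 and 11.09 on day 1 and 13.25 and 13.32 in P14 EpiLCs, against 13.18 and 13.24 on day 1 and 13.20 and 13.26 in EpiLCs of the parental line. It fell by 2.15 on the log2 scale, a difference from the parental change of -2.13 ± 0.14 (limma adjusted p = 2.11e-06), and its second probe set differed by -2.65. The stages of Dnmt3b overlapped in the parental line, where Dnmt3l changed by -3.50, beside -3.59 in the P14 line. Dnmt3a changed by -1.06 ± 0.26 in the P14 line and by -1.22 in the parental line, and the P14 call was lost under 5 alternatives. The other Dnmt3a probe sets changed by -0.9, -0.34, -0.93 and -0.175 within the P14 line. Dnmt1, the maintenance methyltransferase, had a change of -0.18 and Uhrf1, its partner, of -0.50, and the hydroxylases Tet1 and Tet2 of 0.06 and 0.79, none of them called. Gadd45a, a stress and demethylation gene, and Apobec1, a cytidine deaminase gene, had changes higher than the parental ones by 1.13 ± 0.18 and 1.20 ± 0.30, and the call of Apobec1 was lost under 6 alternatives.

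The corepressor gene Cbfa2t2 and its relative Runx1t1 rose in the P14 line. Of 16 PRDM14 partner and Polycomb genes tested, these 2 rose and 0 fell in the P14 line, and the median was -0.06. Over all genes tested, 4.28% rose and 3.71% fell, with a median of 0.02. Cbfa2t2 was at 10.19 and 10.13 on day 1 and 8.95 and 9.02 in P14 EpiLCs, against 8.95 and 8.94 on day 1 and 8.99 and 9.12 in EpiLCs of the parental line, a difference of 1.29 ± 0.12, with 0.43 and 0.97 for its dimmer probe sets. With the mean of all probe sets the calls of Cbfa2t2 were lost. Runx1t1, a corepressor of the same ETO family, was at 10.42 and 10.21 on day 1 and 6.74 and 6.85 in P14 EpiLCs, against 8.87 and 8.6 on day 1 and 6.76 and 7.06 in EpiLCs of the parental line. It rose in both lines and by 1.70 ± 0.24 more in the P14 line. The Polycomb genes Ezh2, Suz12 and Eed had changes of -0.30, -0.06 and -0.26.

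Signalling lists held called members in both directions. Their counts, from FGF to WNT below, stand beside 7.99% of all genes called within the P14 line. Of 21 FGF and ERK genes tested, Fgf8, Dusp4, Fgfr2 and Il17rd rose and Etv4 fell in the P14 line (median -0.05), and in the parental line Fgf8 rose and Etv4, Myc, Fgf4 and Egr1 fell. The P14 call of Etv4 was lost under 6 alternatives, among them leaving out any of the 4 P14 arrays. The difference was higher for Dusp4, Fgfr2, Myc and Spry4 and lower for Fgfr1. Fgfr2 was at 7.54 and 7.81 on day 1 and 5.66 and 5.53 in P14 EpiLCs, against 6.23 and 6.22 on day 1 and 5.92 and 5.65 in EpiLCs of the parental line, a difference of 1.64 ± 0.18. Fgfr1 was at 7.25 and 7.05 on day 1 and 8.01 and 7.97 in P14 EpiLCs, against 8.38 and 8.28 on day 1 and 8.2 and 7.99 in EpiLCs of the parental line, a difference of -1.08 ± 0.15. Fgfr2 rose within the P14 line, while the change of Fgfr1 there, -0.84 ± 0.11, was not called, and the call of its difference was lost under 3 alternatives. Dusp4, an ERK phosphatase gene, was at 8.63 and 9.25 on day 1 and 6.37 and 6.65 in P14 EpiLCs, a rise of 2.43 ± 0.28, and Spry4, a feedback inhibitor, differed by 1.11 ± 0.20.

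Of 13 LIF and STAT3 genes tested, the receptor genes Il6st and Lifr rose and Pim2 and Socs3 fell in the P14 line (median -0.19), while Pim1 and Socs3 fell in the parental line. Il6st, which encodes the shared subunit gp130, was at 8.92 and 8.91 on day 1 and 7.31 and 6.98 in P14 EpiLCs, against 7.43 and 7.28 on day 1 and 7.44 and 7.1 in EpiLCs of the parental line, a difference of 1.69 ± 0.19. Lifr differed by 2.00 ± 0.21, and by 0.46 and 0.50 on its dim probe sets. Socs3, a target of STAT3, differed by -2.68 ± 0.31, so the receptors and this target moved in opposite directions.

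Of 15 BMP genes tested, Id4 and Id2 rose and the inhibitory Smad6 and Smad7 fell in the P14 line (median -0.19), and 0 were called in the parental line. Id4, an inhibitor of basic helix-loop-helix factors, was at 8.07 and 8.26 on day 1 and 4.81 and 4.85 in P14 EpiLCs, against 5.12 and 4.93 on day 1 and 5.11 and 4.42 in EpiLCs of the parental line, a difference of 3.08 ± 0.32. Smad6 was at 2.55 and 2.68 on day 1 and 5.64 and 5.65 in P14 EpiLCs, a difference from the parental change of -2.72 ± 0.54. Both day 1 arrays of Smad6 lay below 3.95, so these sizes are approximate. The P14 call of Id2 was lost under 4 alternatives, as was the call of its difference from the parental change. Its dimmest probe set changed by 0.085 in the P14 line. Id1 and Id3, the usual targets of BMP signals, had changes of 0.00 and -0.19. Of 13 Nodal and Activin genes tested, Lefty1 and Lefty2 rose and Foxh1 and Smad7 fell (median -0.01), while in the parental line Nodal rose. Foxh1, the partner of SMAD2, was at 7.8 and 7.71 on day 1 and 9.04 and 9.04 in P14 EpiLCs, against 9.6 and 9.44 on day 1 and 9.05 and 9.08 in EpiLCs of the parental line, a difference of -1.74 ± 0.13. The ligand gene Nodal had a change of -0.28 in the P14 line, not called, and its difference from the parental change was -1.66 ± 0.20. Of 11 WNT genes tested, Rspo3, Sp8 and Lef1 rose and Wnt8a fell in the P14 line, and Sp8, Wnt8a and Rspo3 rose in the parental line (medians -0.10 and 0.10).

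Hypoxia and glycolysis genes that changed mostly fell in both lines. The counts here stand beside 7.99% of all genes called in the P14 line and 6.57% in the parental line, with 4.53% for the difference. Of 18 tested, 8 fell (Egln3, Bnip3, Hk2, Pfkl, Hk1, Pdk1, Ldha and Vegfa) and Ndrg1, Slc2a3 and Epas1 rose in the P14 line, with a median of -0.79, and in the parental line 9 fell and 1 rose, with a median of -0.96. The difference was called lower for Hk1, Hk2 and Egln3 and higher for Epas1 and Ndrg1, and that of Egln3 was lost under 9 alternatives. Hk1, a hexokinase gene, was at 6.6 and 6.49 on day 1 and 8.07 and 8.21 in P14 EpiLCs, against 8.2 and 8.05 on day 1 and 8.27 and 8.07 in EpiLCs of the parental line, a difference of -1.55 ± 0.14. Bnip3, a mitophagy gene induced by low oxygen, changed by -2.61 ± 0.18 in the P14 line and by -2.20 in the parental line, and the difference was not called. Of 17 p53 and stress genes tested, Ddit4, Atf3 and Trib3 fell in the P14 line and Ddit4 and Gadd45a in the parental line (medians -0.42 and -0.36). Of 24 cell cycle genes tested, Ccnd2 fell and 0 rose in the P14 line, with a median of -0.06. The cyclin and kinase genes Ccna2, Cdk1 and Plk1 had changes of 0.02, 0.00 and 0.03. The differences of Ccnd3, Cdk6 and Cdkn1c were called higher in the P14 line, all between 1.03 and 1.07, and these calls were lost under 5, 11 and 10 of 19 alternatives in that order. Of 12 imprinted genes tested, Plagl1 rose in both lines, and the differences of Phlda2, Peg3 and Cdkn1c were called higher in the P14 line (1.49, 1.22 and 1.07). Of the 3 Y-linked genes tested, Eif2s3y was the one called.

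Markers of other cell types held called members in both directions, and their counts stand beside 7.99% of all genes called within the P14 line. Of 14 primitive streak and mesoderm markers tested, Nkx1-2 and the ligand gene Fgf8 rose and 0 fell in the P14 line, both also rose in the parental line, and the difference was called for 0 (limma). Eomes and Mesp1, defining genes of the streak, had changes of -0.55 and -0.15, and T (Brachyury) was not among the genes of the array table. The list's mean level was 4.52 and 4.65 on day 1 and 4.14 and 4.04 in P14 EpiLCs. Of 9 endoderm markers tested, 0 were called in the P14 line, with Sox17 and Gata6 at changes of -0.07 and 0.14, and Foxa2 rose in the parental line. All 4 Hox genes tested were uncalled in both lines, as was the 1 tested gene of the 2-cell-like list. Of 14 neural markers tested, Hesx1, Tubb3 and Fabp7 rose and Sox1, Sox3 and Zic1 fell in the P14 line, and the difference was lower for Sox1 (-2.01 ± 0.35) and Sox3 (-1.29 ± 0.24). Sox1, an early neural gene, was at 3.2 and 2.86 on day 1 and 4.88 and 4.56 in P14 EpiLCs, against 5.44 and 5.68 on day 1 and 4.9 and 5.58 in EpiLCs of the parental line.

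Of 13 trophectoderm and surface ectoderm markers tested, the keratin gene Krt8 rose and Ascl2, Krt7 and Krt18 fell in the P14 line, and the change of Krt18 differed from the parental one by -1.51 ± 0.25. Of 8 fibroblast markers tested, Tagln and Acta2 rose and Thy1 fell in the P14 line, and the call of Acta2 was lost under 5 alternatives. The list's mean level was 5.80 and 5.78 on day 1 and 5.50 and 5.35 in P14 EpiLCs, and the collagen genes Col1a2 and Col3a1 had changes of -0.58 and 0.29. Of 17 genes of the epithelial and mesenchymal state tested, Zeb2, Cdh2, Esrp2 and Fn1 rose and Cldn4 fell in the P14 line. Cdh2, which encodes N-cadherin, was at 7.75 and 7.88 on day 1 and 6.31 and 6.59 in P14 EpiLCs, a difference from the parental change of 1.08 ± 0.18. Esrp2, an epithelial splicing factor gene, and Fn1, the fibronectin gene, differed by 1.23 ± 0.15 and 1.11 ± 0.12, and the tight junction gene Cldn4 by -1.86 ± 0.13. The part of these cell types in the other results was not tested.

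Set beside the 3-factor line BP14A, which also carries a Prdm14 transgene, the P14 change differed in 124 genes (0.885% of 14010), 74 with a higher (0.528%) and 50 with a lower (0.357%) P14 change. Of the P14 calls, 77.1% were called in the same direction in BP14A, 58.2% of the 1483 BP14A calls (10.6% of all genes, 5.72% higher and 4.86% lower). Of the factor and early germ cell genes, the P14 change was lower for Prdm1 (-1.91, limma adjusted p = 0.000404), Ifitm1 (-1.13, adjusted p = 0.00844), the homeobox gene Rhox9 (-2.24, adjusted p = 0.0412) and Dppa3 (-1.67, adjusted p = 0.0486), and for Prdm1 the BP14A line has a Blimp1 transgene that the probe set may read. Of the 22 primed epiblast genes, 6 had a higher P14 change and 0 a lower one, with differences of 1.63 for Pou3f1, 1.80 for Foxd3, 1.30 for Dnmt3b, 1.11 for Sall2, 1.4 for Zic2 and 2.52 for Zeb2. Of the 14 neural markers, the P14 change was higher for Sox1 (1.99) and lower for Hesx1 (-1.82). The largest excesses in the P14 line were of Zbtb42, a zinc-finger gene (3.70), Sema6a, a semaphorin gene (2.67), Zeb2 (2.52) and Wt1, the Wilms tumour gene (2.49). The largest deficits were of Calcoco2, an autophagy receptor gene (-4.33), Adgrg6, an adhesion receptor gene (-3.05), Glis3, a Kruppel-like zinc-finger gene (-2.49), and Slco4c1, an organic anion transporter gene (-2.26). Of these 8 genes, Sema6a and Wt1 kept the call under every alternative. Both P14 means of Zbtb42 lay below 3.95, and its call was lost with values floored there. For Zeb2, Adgrg6, Glis3 and Slco4c1 the P14 EpiLC means, and for Calcoco2 the P14 day 1 mean, were also below it. The sizes of these differences are approximate. Wt1 was at 8.6 and 8.78 on day 1 and 7.95 and 7.91 in P14 EpiLCs, a change within the P14 line of 0.76, under the size of a call. Sema6a changed by -0.205 within the P14 line, so its excess was not a rise there. The count was 79 without the first P14 EpiLC array and 77 without the second BP14A day 1 array, and the share with a higher P14 change moved to 68.4% and 77.9%, beside 59.7%.

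Against the B line, which carries Blimp1 alone, the P14 change differed in 739 genes (5.27%), 305 higher (2.18%) and 434 lower (3.1%). Of the P14 calls, 49.1% were called in the same direction in the B line, 40.6% of the 1356 B calls (9.68% of all genes, 5.75% higher and 3.93% lower). Tdgf1, which encodes the Nodal co-receptor CRIPTO, had the largest difference, 6.25 (limma adjusted p = 1.05e-11). It was at 12.13 and 12.24 on day 1 and 12.43 and 12.58 in P14 EpiLCs, against 5.87 and 5.87 on day 1 and 12.41 and 12.46 in EpiLCs of the B line. Other large excesses in the P14 line were of Tcf15 (4.62), Mgam, a glucosidase gene (4.40), and Zfp385c, a zinc-finger gene (4.38). The largest deficits were of Penk, an opioid precursor gene (-4.95), Foxd4, a forkhead gene (-4.66), Greb1l, a cofactor gene (-4.62), and Smarca2, a chromatin remodeller gene (-4.15). The P14 arrays of Mgam and Zfp385c all lay below 3.95, and both genes lost the call with values floored there. Both P14 means of Penk and the EpiLC means of Foxd4 in both lines were below 3.95 as well, so their sizes are approximate. The dimmer Smarca2 probe set changed by 0.07 within the P14 line, against -2.34 for the one used. Nr0b1 and Epas1 also differed, by 3.49 and 3.54, while for Dppa3 the difference was 0.91 and not called. The groups compared here share the P14 arrays with the comparison against the parental line, so the counts are not independent.

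**Figure D4:**
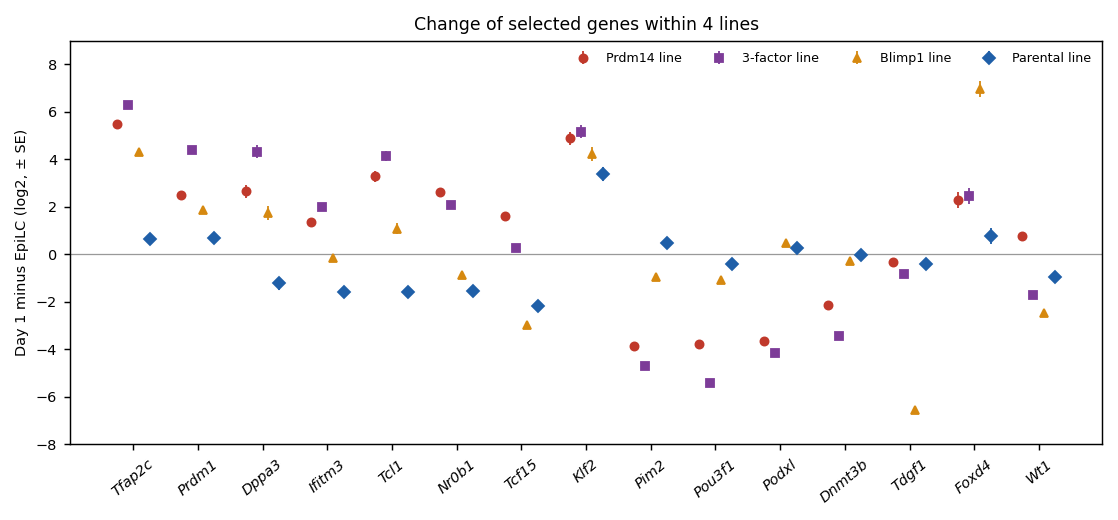
Log2 change of day 1 over EpiLC (± SE from limma, 2 arrays per group) for 15 genes in the Prdm14 line, the 3-factor line, the Blimp1 line and the parental line. Tdgf1 lies near 0 in the Prdm14 line and far below 0 in the Blimp1 line, and Pou3f1 and Dnmt3b fall further in the 3-factor line than in the Prdm14 line, with differences of 1.63 and 1.30.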

How the data were processed

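Total RNA was labelled as biotinylated cRNA, per the labels' protocols, and each group's pair is described as biological duplicates. No label says how they were separated, so p-values measure the spread between these samples. The table deposited by the authors holds log2 values per probe set and array. The base was inferred from the range of the values (0 to 13.83), and the normalization and probe summary, not given in the sources used here, were taken as they stand. No detection calls were used. The precision is limited by the number of arrays.

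Control probe sets (64) were left out. Of 45037 others, 34945 have 1 gene in the platform annotation, 932 several and 9160 none listed, and 34741 matched RefSeq (GRCm38.p6) for names. Each gene was represented by its brightest probe set after a filter (highest group mean at least 3.95, the 40th percentile), which left 14010 of 18193 genes. limma 3.58.1 in R 4.3.3 fitted 10 group means to all 20 arrays (10 residual and 1.79 prior degrees of freedom), and differences between lines were contrasts of changes. P-values are two-sided and Benjamini-Hochberg adjusted over all genes tested, and calls require an adjusted p below 0.05 with a log2 change of 1 or more in size. Summaries used Python 3.11.15 and pandas 2.3.3, and the fit was tested on simulated data.

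The members and gene lists were chosen with earlier results of these data known, and the lists were written from general knowledge. Named genes are the 12 largest rises and falls in the P14 line, the 10 largest differences from the parental change in each direction, called list members, the 3 factors, up to 6 genes a direction called oppositely in the 2 lines and the 4 largest differences each way from the B and BP14A lines, leaving out clone names. Other genes named in the text were chosen after their values were seen or stand as list members beside called ones. Alternatives were another summary of probe sets, filter, floor, scaling, set of samples and threshold, a replicate block and leaving out each array. Replicate numbers were not taken to pair the arrays, since not every pair of groups had deviations from the group means that correlated over 0.1: r was 0.0235 for the P14 groups, and 6 of 45 pairs were over 0.1, with a highest r of 0.196.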

Additional observations from a re-analysis of the deposited data

Results flagged for a closer look

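Differences between lines in the same contrast, day 1 against EpiLCs, were tested as differences of changes by limma. The P14 change differed from the parental change in 635 genes, from the B change in 739 and from the BP14A change in 124. The P14 and parental lines were called in opposite directions for 23 named genes. The largest such differences with a rise in the P14 line were 4.86 log2 units for Tcl1, 4.65 for Epas1, 4.16 for Nr0b1, 3.87 for Dppa3, 3.84 for Bnc2 and 3.83 for Tcf15. Those with a fall in the P14 line were -4.39 for Nt5e, -4.26 for Wnt8a, -3.93 for Hs6st2, -3.68 for Has2, -3.64 for Cxcl12 and -3.57 for Pdgfrl. With 2 arrays a group, no search for outlying samples applies.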

How the results depend on the processing

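The count of P14 genes called stayed within 1.5 times of 1120 under all 14 alternatives, between 860 and 1203, with 1071 to 1112 when an array was left out. For the difference from the parental change (635) leaving out an array gave 580 to 629, and a test against a change of at least 0.5 gave 394. For the difference from the B change (739) these were 676 to 714 and 478. The difference from BP14A (124) was the least stable: 77 to 140 with an array left out, 51 with a fit of the compared groups only, and 14 with the test against 0.5. For P14 against parental EpiLCs (5) leaving out an array gave 5 to 16, and the fit of the compared groups only gave 1. With the replicate block the counts were 1125, 650, 762, 130 and 7 in the same order, and the numbers were not taken to pair the arrays. No called change of a named gene reversed its sign. Of 118 named genes called in the P14 line, 84 kept the call under every alternative, as did 61 of 104 for the difference from the parental change, 6 of 8 for B and 2 of 8 for BP14A. The majority direction of P14 calls, 600 higher and 520 lower, turned over with centred array medians (551 and 557), quantile normalization (553 and 571) and the mean of all probe sets (421 and 439). That of P14 against parental EpiLCs, 0 higher and 5 lower, turned to 11 and 5 without the first parental EpiLC array. In every setting without an array, the lone array of its group is assumed to vary like the others. With 2 arrays of 1 clone a group, other clones are not represented. Signals under about 3.95 have no reliable order, and their folds are approximate. The cause of each shift was not tested.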
